A study of Mus musculus with 9 samples.

Results

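The genes described here encode 10 proteins that hepatocytes secrete into blood plasma, most of them carriers: *Alb*, *Afp*, *Afm*, *Ttr*, *Rbp4*, *Vtn*, *Hpx*, *Ambp*, *Trf* and *Apoh*. They were picked by name, and all 10 were found among the 13643 genes listed in at least 1 of the 2 deposited tables (13424 genes in one, 13478 in the other). RNA had been sequenced from AML12 cells, a mouse hepatocyte line established from animals carrying a transgene for human TGF-alpha and grown here in DMEM/F12 with fetal bovine serum, an insulin-transferrin-selenium supplement and dexamethasone. In the knockdown groups, lentivirus delivered 1 of 2 hairpins (shRNA 1 and shRNA 2) against *Srrm2*, a scaffold protein of nuclear speckles. Each group, the control included, had 3 libraries, labelled with 5 days of infection. All groups were the same cell line in the same medium, and nothing in the labels says whether the 3 libraries of a group came from separate infections.

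Plasma carrier proteins keep poorly soluble or reactive cargo in solution: fatty acids and bilirubin on albumin, retinol and thyroid hormone on the RBP4-transthyretin complex, haem on hemopexin and iron on transferrin. Most of their genes are among the most active of the liver, are switched on around birth or before it, and are read by hepatocytes through a shared set of transcription factors such as HNF4 and C/EBP proteins. High RNA levels of these genes are a usual sign of a differentiated hepatocyte, except for *Afp*, which is silenced after birth.

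Each deposited table gives, for each gene, 1 mean normalized count (read counts divided by a size factor for each library) over 6 libraries, the 3 control libraries and the 3 libraries of 1 hairpin. The values below are these authors' means. They hold no value per library, so no SD, no interval and no test stands behind any difference, and the difference between knockdown and control cannot be read from them. The means of *Srrm2* itself were 3428 and 3759, which for the same reason does not show its depletion. Because the control libraries enter both means, a gene whose mean differs between the tables must differ between the shRNA 1 and shRNA 2 libraries or in the scaling of the tables. That ratio (shRNA 2 table over shRNA 1 table, divided by its median over 7757 genes with means of at least 100, a factor of 0.07 on the log2 scale) is called the pooled ratio. The hairpins themselves differ in a gene by at least as large a fold as the pooled ratio, since the control share can only dilute the difference. The tables were normalized separately, and this bound takes the control libraries to weigh alike in both after the division.

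The pooled means put the 10 genes in a wide range of levels. Counts were divided by the kilobases of merged exons to compare genes (mean normalized count per kb). *Ttr* was highest at 2049 per kb in the shRNA 1 table and 2165 in the shRNA 2 table, and *Afp* lowest at 5.17 and 4.04. *Ttr*, *Alb*, *Ambp* and *Hpx* lay above the 98th percentile of all listed genes in both tables, *Rbp4* at percentiles 95.9 and 91.9 and *Trf* at 77.2 and 78.1. *Vtn* and *Afm* were close to the median gene (43.1 and 44.8 per kb), and *Apoh* and *Afp* were below the 30th percentile. *Alb* and *Ambp* changed places between the tables and the other 8 genes kept theirs, but without a spread over libraries none of the neighbours in this order can be said to differ. In bulk RNA such as this, fewer cells of a type and less RNA per cell cannot be told apart. Together the 10 genes made up 0.137% of the sum over all genes in the shRNA 1 table (6144608) and 0.128% in the shRNA 2 table (6393456).

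**Figure D1:**
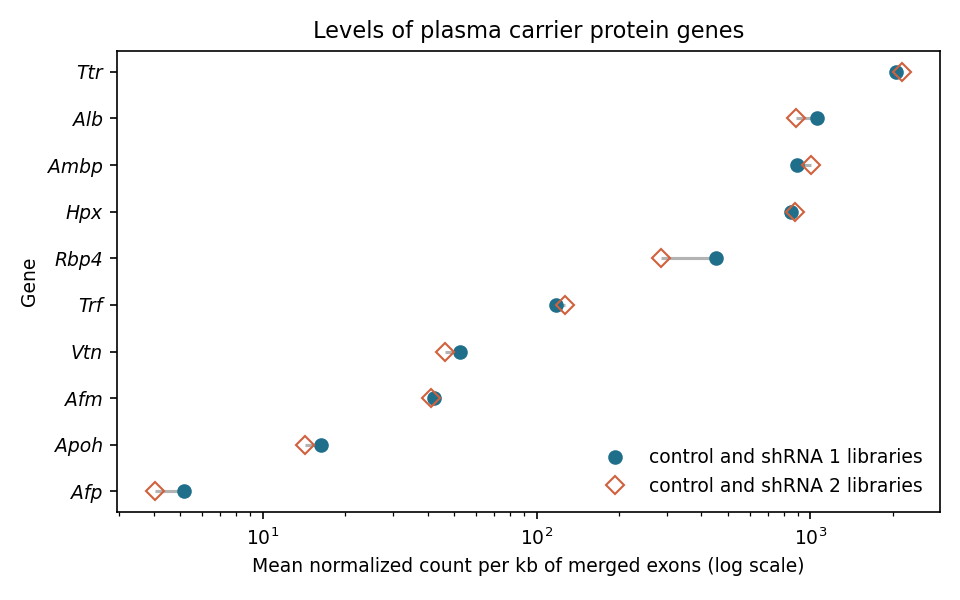
Mean normalized count per kb of merged exons (log axis) of the 10 plasma carrier protein genes in the table that pools control and shRNA 1 libraries (filled circles) and the table that pools control and shRNA 2 libraries (open diamonds), as deposited and not centred. *Ttr* is highest and *Afp* lowest in both, and the widest gap between the symbols is that of *Rbp4*, from 454 to 286.

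The sequences just before the RefSeq start sites are shown for the neighbouring genes *Alb*, *Afp* and *Afm*, which lay far apart in level, and for *Rbp4*, which had the pooled ratio farthest from 1. They are the 150 bases before the RefSeq start site, matched without mismatch at 1 place each in NCBIM37, the assembly of mm9. These start sites can differ from the gene starts of the GENCODE M1 annotation, printed below. The *Alb* window ends short of its printed start at 90889915, and the *Afm* window runs past its printed start at 90947958. RefSeq gives 2 start sites for *Rbp4*, and the downstream one is shown. Its window lies inside the printed extent of the gene. Capitals mark matches, on either strand, to TATAAA (the TATA box), CCAAT (the NF-Y site) and TGTTTAC (a forkhead site), none of which overlap in these 4 windows.
*Alb* (chr5:90889746-90889895, + strand): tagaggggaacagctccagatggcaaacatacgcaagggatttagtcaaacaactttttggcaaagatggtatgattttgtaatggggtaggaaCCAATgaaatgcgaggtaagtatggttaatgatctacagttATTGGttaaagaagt
*Afp* (chr5:90919590-90919739, + strand): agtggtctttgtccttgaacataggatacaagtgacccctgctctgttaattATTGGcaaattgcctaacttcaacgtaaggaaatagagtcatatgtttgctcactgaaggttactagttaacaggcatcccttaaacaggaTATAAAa
*Afm* (chr5:90947825-90947974, + strand): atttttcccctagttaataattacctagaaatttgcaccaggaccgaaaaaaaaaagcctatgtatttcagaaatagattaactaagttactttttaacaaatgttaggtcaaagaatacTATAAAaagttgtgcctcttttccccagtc
*Rbp4* (chr19:38199302-38199451, - strand): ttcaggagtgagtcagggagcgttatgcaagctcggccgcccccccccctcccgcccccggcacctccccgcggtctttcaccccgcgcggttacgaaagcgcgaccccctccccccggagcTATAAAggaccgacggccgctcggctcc

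TATAAA was in the windows of *Afp*, *Afm*, *Vtn* and *Rbp4* and in 7.57% of the 32851 RefSeq promoters of the same length, and CCAAT in those of *Alb*, *Afp*, *Hpx* and *Ambp* and in 24.5% of all. The TATAAA match began 30 bases before the RefSeq start site in *Afm*, 28 in *Rbp4* and 7 in *Afp*. In *Vtn* the matches lay farther off, at 137 and 135 bases. TGTTTAC was found for *Apoh* and in 592 of all promoters. The windows of *Apoh* and *Ambp* lay inside the GENCODE M1 extent of their genes, and that of *Vtn* ran past its GENCODE M1 start. The upstream window of *Rbp4* held none of the 3 motifs and was 36.0% G and C. The downstream window of *Rbp4* was 71.3% G and C, against 30.7% in *Afm*, 38.0% in *Afp* and 38.7% in *Alb*. No promoter of *Trf* was given in the sequence table used here, and that of *Ttr* is not shown. These matches are letters in a window and were not related to the levels by any test.

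Transthyretin and retinol-binding protein 4 travel together in plasma, *Ttr* carrying thyroxine and holding RBP4, and *Rbp4* carrying retinol from the liver. *Ttr* (ENSMUSG00000061808.3, 4 exons, chromosome 18 of mm9 from 20823751 to 20832825, + strand) had means of 2497 and 2640 normalized counts. Its pooled ratio was 1.01, or 0.01 on the log2 scale, so the tables gave *Ttr* nearly the same level. *Rbp4* (ENSMUSG00000024990.6, 6 exons in its longest coding transcript, chromosome 19 from 38191110 to 38199811, - strand) had a mean of 588 in the shRNA 1 table and 371 in the shRNA 2 table. Its pooled ratio was 0.601, or -0.73 on the log2 scale, 39.9% lower with shRNA 2. Only 9 of the 6491 genes with means between 100 and 1000 had a log2 pooled ratio as low, *Rbp4* included. By the arithmetic of these means, the level of *Rbp4* in shRNA 2 libraries was at most 0.601 of that in shRNA 1 libraries, whose mean was at least 469 normalized counts, while the control mean was at most 708. Per kb, *Ttr* exceeded *Rbp4* by 4.52-fold in the shRNA 1 table and 7.57-fold in the shRNA 2 table. *Stra6*, the membrane receptor that takes retinol from RBP4, went the other way, with 57.5 and 96.8 per kb and a log2 pooled ratio of 0.68.

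The albumin family was uneven within a short stretch of chromosome 5. *Alb*, *Afp* and *Afm* lie head to tail on the + strand within 92.7 kb, with gaps of 14.1 and 10.0 kb between them. *Alb* (ENSMUSG00000029368.9, 15 exons, 90889915 to 90905629), the main carrier of plasma, had means of 2151 and 1814 normalized counts. *Afp* (ENSMUSG00000054932.3, 15 exons, 90919740 to 90937933), the fetal counterpart that is silenced after birth, had 10.8 and 8.42. *Afm* (ENSMUSG00000029369.10, 90947958 to 90982569), which binds vitamin E, had 128 and 125. Per kb, *Alb* stood 204-fold above *Afp* in the shRNA 1 table and 220-fold in the shRNA 2 table, where it also exceeded *Afm* by 21.5-fold. *Afm* in turn exceeded *Afp* by 8.17-fold and 10.2-fold. *Gc*, the vitamin D carrier and a more distant relative on the opposite strand, 1003 kb before *Alb*, was higher than *Alb* by 2.87-fold and 3.71-fold per kb.

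**Figure D2:**
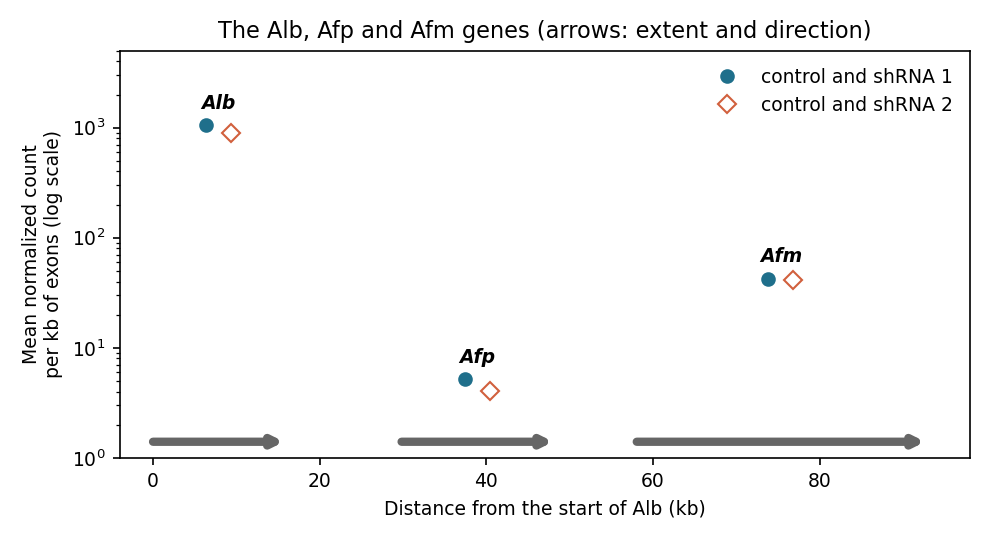
Mean normalized count per kb of merged exons (log axis) of *Alb*, *Afp* and *Afm* against distance from the start of *Alb* in kb, with arrows for the extent and direction of each gene. Filled circles pool control and shRNA 1 libraries and open diamonds control and shRNA 2 libraries. *Afp*, between its neighbours, was the lowest at 5.17 and 4.04.

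Between the tables, *Alb* had a pooled ratio of 0.805, 19.5% lower with shRNA 2 and -0.31 on the log2 scale. Of the 1266 genes with means of at least 1000, 23 had a log2 pooled ratio as low, *Alb* included. Its level in the shRNA 1 libraries was thus at least 840 normalized counts, and that in the shRNA 2 libraries at most 0.805 of it. *Afm* had a pooled ratio of 0.933 (-0.10 on the log2 scale), at percentile 24.5 of the genes with means of at least 10. *Afp* had 0.745 (-0.42), but its mean in the shRNA 2 table was under 10 normalized counts, where the ratio of few reads is least precise, and it was left out of the counts below.

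*Hpx*, *Ambp* and *Trf* encode proteins that bind haem, iron or a protease and shield tissue from them. *Hpx* (ENSMUSG00000030895.8, 10 exons, chromosome 7 from 112740127 to 112748630, - strand), which captures free haem, had means of 1250 and 1295 normalized counts. *Ambp* (ENSMUSG00000028356.4, 10 exons in its longest coding transcript, chromosome 4 from 62804309 to 62815833, - strand) encodes alpha-1-microglobulin, a lipocalin that binds haem, and bikunin, a protease inhibitor, in 1 precursor, and had 1262 and 1419. *Trf* (ENSMUSG00000032554.9, 17 exons in its longest coding transcript, chromosome 9 from 103106331 to 103132774, - strand), the iron carrier, had 390 and 419. Their pooled ratios were 0.988, 1.07 and 1.02, that is -0.02, 0.10 and 0.04 on the log2 scale. All 3 lay between percentiles 43.9 and 74.6 of the genes with means of at least 10. The level of *Trf* is uncertain, because 63.7% of its 3310 exon bases are shared on the same strand with a second gene model of the same name, which is in neither table. With its whole mean divided by its 1202 unshared exon bases alone, its level in the shRNA 1 table would be 324 per kb in place of 118. The value of 324 holds only if no reads in the shared bases entered the mean. How reads in the shared bases were counted is not given in the sources used here, and its part in the level of *Trf* was not tested.

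Bikunin is linked in plasma to the heavy chains of the inter-alpha-trypsin inhibitors. Of these, *Itih2* had 541 and 371 per kb with a log2 pooled ratio of -0.61, while *Ambp* had 896 and 1007. *Itih1*, *Itih3* and the related *Itih4*, which is not counted here as a partner of bikunin, were named after their values were seen. They had 1.12, 0.947 and 1.23 per kb in the shRNA 1 table. Of the bikunin-linked heavy chains on the list, only *Itih2* was thus near the level of *Ambp*. *Ambp* exceeded *Itih2* by 1.66-fold in the shRNA 1 table and 2.71-fold in the shRNA 2 table.

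The remaining 2 members act at cell and lipid surfaces. *Vtn* (ENSMUSG00000017344.4, 8 exons in its longest coding transcript, chromosome 11 from 78312593 to 78315826, + strand), an adhesion protein that binds integrins, had means of 107 and 94.2 normalized counts. *Apoh* (ENSMUSG00000000049.5, 8 exons in its longest coding transcript, chromosome 11 from 108204668 to 108275710, + strand), beta-2-glycoprotein I, which binds anionic phospholipids, had 26.0 and 22.7. The pooled ratios were 0.841 for *Vtn* and 0.832 for *Apoh*, or -0.25 and -0.27 on the log2 scale. Among genes with means between 10 and 100 in the table where they were lower, 12.5% had a ratio as low as *Vtn* and 11.3% as low as *Apoh*. At these levels the ratios of all genes spread widely, with an SD of 0.28 on the log2 scale.

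Counted over the list, 9 of the 10 members reached a mean of 10 in each table, and 4 of these 9 (*Rbp4*, *Alb*, *Apoh* and *Vtn*) were lower with shRNA 2 by at least 1.1-fold in the pooled ratio. Of all 11451 genes with such means, 17.5% were lower by as much. None of the 9 was higher by 1.1-fold, against 18.4% of all genes. The median log2 pooled ratio was -0.10 over the 9 members and 0.0043 over all genes. The 4 members below the limit ranged from a high gene (*Alb*) to a low one (*Apoh*), and the 5 within it were *Ttr*, *Hpx*, *Ambp*, *Trf* and *Afm*.

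**Figure D3:**
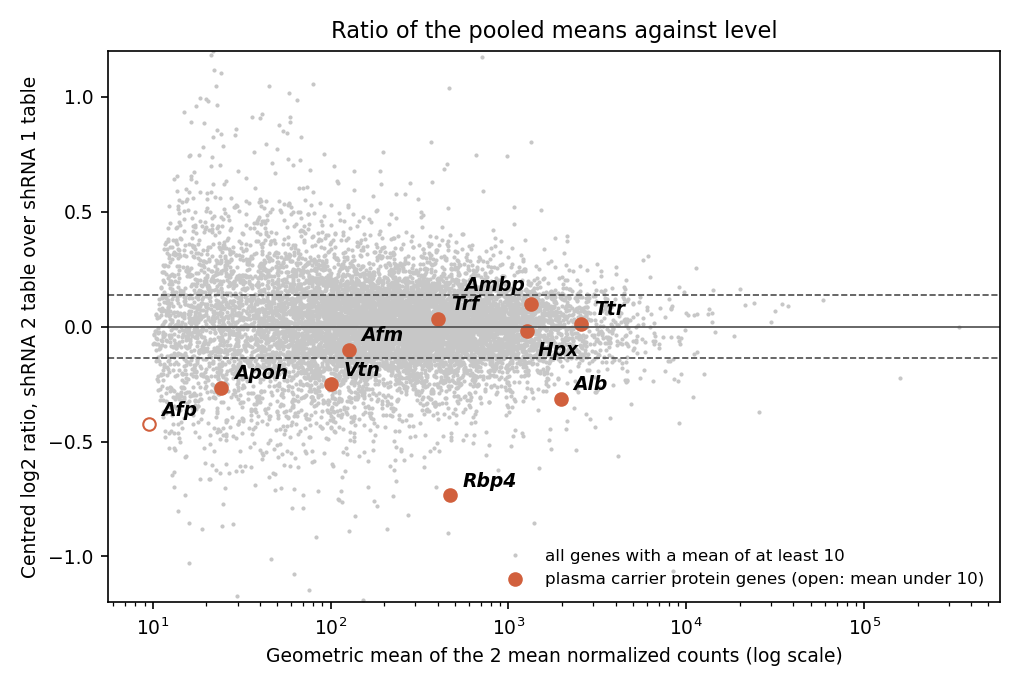
Log2 pooled ratio of each gene (shRNA 2 table over shRNA 1 table, centred) against the geometric mean of its 2 mean normalized counts (log axis), for all genes with means of at least 10 (grey) and the 10 plasma carrier protein genes (orange, *Afp* open because its mean was under 10 in 1 table). Dashed lines mark 1.1-fold, and 19 genes lie outside the plotted range of 1.2 on either side. *Rbp4* at -0.73 stands at the lower edge of the grey points, *Alb* at -0.31 is low for its level, and *Ttr*, *Hpx* and *Trf* are close to 0.

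Lists of related genes put these levels in context. Of 29 other plasma proteins, 25 were listed in both tables, with a median of 26.8 per kb in the shRNA 1 table. *Gc*, *Apob*, the structural protein of low-density lipoprotein, and *Cp*, the copper protein ceruloplasmin, were the highest at 3022, 1449 and 992. Of the 17 with means of at least 10, 8 were lower with shRNA 2 by at least 1.1-fold in the pooled ratio and 4 higher. The shares over all genes with such means were 17.5% lower and 18.4% higher. The median log2 value of the 17 was -0.09. *Serpina1a*, an antitrypsin gene with near-identical copies among which reads can be lost or split, had a log2 pooled ratio of 0.36. Of 17 receptors and binding partners, 14 were listed, 3 lower and 6 higher by at least 1.1-fold, beside the same shares over all genes. Of those named here, *Itgb1*, an integrin subunit, had 1452 per kb in the shRNA 1 table and *Plaur*, the urokinase receptor, 501.

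All 16 transcription factors on a list of hepatocyte regulators were listed. By at least 1.1-fold, 2 were lower and 7 higher, against 17.5% and 18.4% of all genes. The median log2 pooled ratio of the 16 was 0.09. *Nr1h4*, the bile acid receptor, was the highest at 344 per kb in the shRNA 1 table, and *Hnf4a* had 298. Their log2 pooled ratios were -0.28 and 0.05. *Nr1h4* was thus lower with shRNA 2 by at least 1.1-fold, and so was *Cebpb*, the other of the 2, named after its values were seen, with 146 per kb in the shRNA 1 table and a log2 pooled ratio of -0.25. The related *Cebpa* had 50.3 per kb and 0.11.

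**Figure D4:**
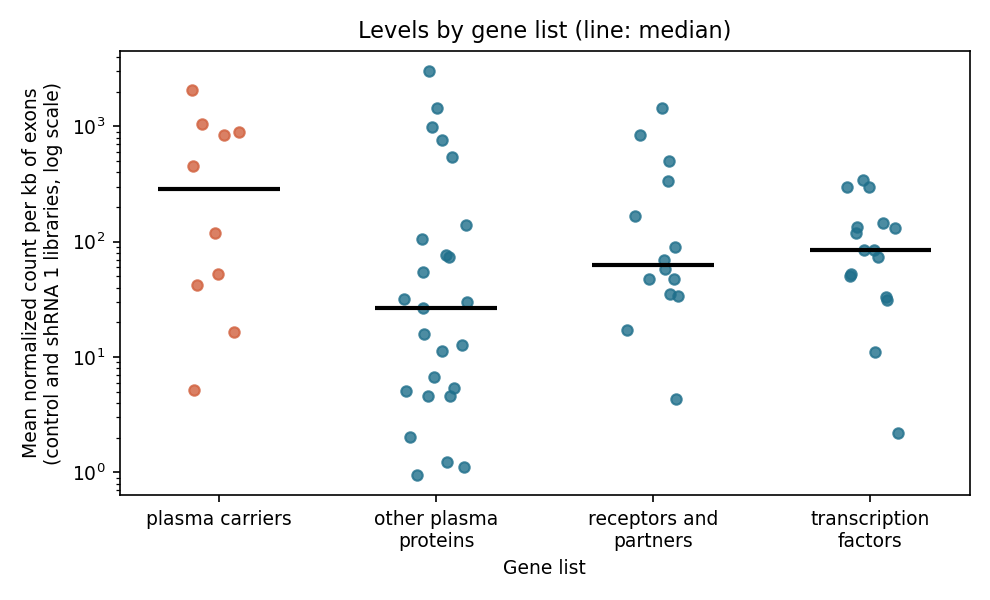
Mean normalized count per kb of merged exons in the table of control and shRNA 1 libraries (log axis) for the plasma carriers (orange) and the lists of other plasma proteins, receptors and partners, and transcription factors (blue), 1 point for each gene listed in both tables. Lines mark the medians of 286, 26.8, 63.4 and 84.7, and the points of the other plasma proteins span from 0.947 to 3022.

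The label of the cells was checked against marker genes. Of 20 hepatocyte markers, 17 were listed in both tables, with *Alb*, *Ttr* and *Hnf4a* among them, and *Apoa2*, *Asgr1* and *Cyp2e1* were not. Levels summed over the list were 17045 and 16403 per kb, of which *Krt8* and *Krt18*, keratins that bile duct cells also make, gave 11628 and 10739. The other 15 genes summed to 5417 and 5664. The adult liver enzymes *Tat*, *Cps1* and *Cyp3a11* had 1.82, 4.71 and 1.42 per kb in the shRNA 1 table. Of 6 markers of bile duct cells, 5 were listed, summing to 4341 and 4549 per kb with *Spp1* at 2447 and *Krt19* at 1537. *Krt7*, *Sox9* and *Cftr* had 192, 162 and 3.68 per kb in the shRNA 1 table, and *Epcam* was not listed. Of 8 stellate cell and fibroblast markers 2 were listed (2.73 and 2.12 per kb in sum), of 6 macrophage markers 3 (25.9 and 29.9), and of 6 endothelial markers 0. The part of other cell types in the levels of the carrier genes was not tested.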

How the data were processed

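The authors trimmed and aligned the reads to mm9 with TopHat2, retained unique concordant pairs, obtained HTSeq counts for GENCODE M1 genes and ran DESeq2 1.8.2 (tools as in the submitters' processing notes and the methods). Each deposited table holds the mean normalized count of a gene over 6 libraries and the authors' own comparison of a hairpin with the control (fold change, standard error, statistic and p-values), which was not used. Identifiers of all 13643 genes matched GENCODE M1 on NCBIM37. Levels were divided by the length of merged exons. Pooled ratios were centred on the median over 7757 genes with means of at least 100, and counted past 1.1-fold for genes with means of at least 10. The arithmetic of the centring and the bound was checked on simulated means. In these the control levels weighed alike in both tables by construction, and the bound was checked with the simulated factor. That check therefore could not test whether the control libraries weigh alike in the deposited means. No value per library was used, so depth and replicate spread are unknown and no test between groups was made. Titles gave the groups, since the labels of 2 control libraries name tables of further hairpins. Genes named beside the members are *Srrm2* and, of the 3 context lists, the 3 highest per kb and the 2 with means of at least 100 whose ratio was farthest from 1, plus partners and markers, and 3 that this rule names are not reported here. Members, lists and limits were chosen with earlier results of these data known. Alternatives were other lengths, rankings, centrings, folds and minimum means. Promoters came from RefSeq (GRCm38.p6; all members but *Ttr* and *Trf* matched and searched here). Python 3.11.15, numpy 2.4.6, pandas 2.3.3 and matplotlib 3.10.9 were used.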

Additional observations from a re-analysis of the deposited data

How the results depend on the processing

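No paired analysis was possible because the tables hold no value per library, and for the same reason no library could be left out. Another centring shifts the log2 pooled ratio of every gene by 1 constant, at most 0.07 here. It bears on the call of a member only where the value is close to a limit. It also moves the shares over all genes, the bounds on the hairpin levels and the sign of values near 0. *Hpx* had 0.05 without centring in place of -0.02. All 10 level percentiles moved by under 5 points among protein-coding genes. With the limit at 0.32 on the log2 scale in place of 0.14 (1.1-fold), 1 member was lower (*Rbp4*), against 4.28% of all genes. With the limit at 0.07, 5 of 9 members were lower, against 30.8% of all genes, and 1 was higher (*Ambp*), against 32.3%. At 1.1-fold and a minimum mean of 100, 2 of 7 were lower (*Rbp4* and *Alb*), against 14.8%. Without centring 1 was higher (*Ambp*). Without centring, 10.2% of all genes were lower by 1.1-fold and 32.5% higher, a shift of 0.07 on the log2 scale, and 4 members were lower. Divided by the longest transcript, the levels were 52.0 per kb for *Afm*, 61.3 for *Vtn*, 996 for *Ambp*, 152 for *Trf* and 21.9 for *Apoh*, with the same order, and over unshared exon bases, an alternative chosen after seeing the data, *Trf* had 324. By mean normalized count as deposited, *Afm* ranked 7 and *Vtn* 8, in place of the reverse.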

Other observations

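The fibrinogen chains, which are assembled in equal number and were named after their values were seen, were uneven in level and ratio. *Fgb* had 74.1 and 51.3 per kb in the shRNA 1 and shRNA 2 tables, *Fga* 29.7 and 22.4, and *Fgg* 2.01 and 1.94. Their log2 pooled ratios were -0.60, -0.48 and -0.12, and the mean of *Fgg* was under 10 normalized counts in both tables. Haptoglobin (*Hp*), which binds free haemoglobin as *Hpx* binds haem, had 755 and 676 per kb and a log2 pooled ratio of -0.23, beside -0.02 for *Hpx*.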
